A study of Homo sapiens with 12 samples.

Results

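A set of 10 genes of the smooth muscle actin cytoskeleton was followed on 12 Illumina bead arrays of MCF10A, a non-transformed line of human breast epithelium. They were TAGLN, ACTA2, ACTG2, CNN1, CNN2, MYL9, TPM1, TPM2, CALD1 and LCP1, and every probe was taken whose symbol in the array annotation was one of these 10. The array annotation named the 10 genes among 20046 genes, and the rule gave 21 of the 47323 probes on the array. Of these, 18 probes of 9 genes were bright enough to be tested, among 17356 tested probes.

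The study had 3 groups, all MCF10A cells kept in medium with 10% serum. VEC cells carried a control vector, CYT1 cells stably expressed the CYT1 form of the part of the ERBB4 receptor kinase that lies inside the cell (intracellular domain, ICD), and CYT2 cells stably expressed the CYT2 form of it. Each group had 4 arrays, which the titles give as 2 biological samples with 2 technical arrays each. Whether a stable line was 1 clone or a pool, and whether its biological samples came from separate infections or from dishes of 1 line, is not given in the sources used here, so the p-values measure the spread between these samples, which may be technical. Arrays of a group that shared a biological number differed by a root mean square of 0.322 on the log2 scale over the tested probes (mean of 6 pairs, range 0.30 to 0.347), arrays that shared a technical number by 0.310 (0.294 to 0.324), and arrays that shared neither by 0.326 (0.305 to 0.351).

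In smooth muscle, actin filaments built from the ACTA2 and ACTG2 actins slide against myosin when its regulatory light chain, the product of MYL9, is phosphorylated. Tropomyosins, calponins, caldesmon and transgelin lie along or bind these filaments and govern how myosin and other proteins reach them. Many of these genes are textbook targets of serum response factor (SRF) and its MRTF and myocardin cofactors, which bind the CArG box, and some also carry the MCAT element CATTCC, the site of TEAD factors. In the breast the same proteins mark the contractile myoepithelial cells, and non-muscle cells use several of them in stress fibres.

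Promoter windows of 250 bases before to 50 bases after each annotated start were searched for both elements on both strands. The reason was that many of these genes are textbook SRF targets and some carry the MCAT element. Of the 10 genes, 8 had a window in the RefSeq table (GRCh38.p14), with 13 windows in all, and TAGLN and MYL9 are named only. Only exact matches to the CArG pattern CCWWWWWWGG, where W is A or T, were counted. Such a box was found in 2 of the 13 windows and in 454 of all 35116 windows of this length (1.29%). Sites with a mismatch were not counted, so a window without a match is not shown to lack a CArG-like site. The ACTA2 window below, for example, holds ccctatatgg and ccttgtttgg, which each depart from the pattern in 1 letter. CATTCC was found in 3 windows of 2 genes, against 4928 of all windows (14.0%), and no match overlapped another. The windows below show the ACTG2 promoter with its pair of CArG boxes (chr2:73892758-73893057, plus strand), that of CNN2 with 1 (chr19:1026358-1026657, plus strand), that of ACTA2 with CATTCC on the opposite strand (chr10:88952724-88953023, minus strand) and that of CALD1 with CATTCC on the sense strand (chr7:134745217-134745516, plus strand). Each is written 5′ to 3′ in the direction of transcription, with the matched letters in capitals.
ACTG2: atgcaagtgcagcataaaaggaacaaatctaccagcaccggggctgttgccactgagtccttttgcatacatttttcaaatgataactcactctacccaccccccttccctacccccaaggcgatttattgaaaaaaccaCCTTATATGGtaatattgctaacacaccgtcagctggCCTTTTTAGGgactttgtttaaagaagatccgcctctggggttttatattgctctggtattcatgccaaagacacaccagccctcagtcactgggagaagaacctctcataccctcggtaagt
CNN2: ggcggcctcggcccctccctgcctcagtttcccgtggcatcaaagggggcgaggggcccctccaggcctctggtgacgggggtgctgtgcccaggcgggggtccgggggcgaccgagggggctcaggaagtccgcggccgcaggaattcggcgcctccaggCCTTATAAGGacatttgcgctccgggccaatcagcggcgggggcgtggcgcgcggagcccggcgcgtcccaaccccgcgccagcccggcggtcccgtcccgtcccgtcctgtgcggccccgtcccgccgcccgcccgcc
ACTA2: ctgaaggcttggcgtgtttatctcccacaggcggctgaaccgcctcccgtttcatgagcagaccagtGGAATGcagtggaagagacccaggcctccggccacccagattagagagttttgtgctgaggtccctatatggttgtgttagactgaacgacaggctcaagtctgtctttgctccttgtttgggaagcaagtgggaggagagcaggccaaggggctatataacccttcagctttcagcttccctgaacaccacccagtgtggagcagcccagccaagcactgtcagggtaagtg
CALD1: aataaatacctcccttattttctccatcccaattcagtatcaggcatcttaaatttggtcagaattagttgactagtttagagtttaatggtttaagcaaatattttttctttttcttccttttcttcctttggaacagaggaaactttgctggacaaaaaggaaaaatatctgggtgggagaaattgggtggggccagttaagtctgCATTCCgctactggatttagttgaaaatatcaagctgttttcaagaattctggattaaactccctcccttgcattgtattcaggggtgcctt
The first bases of the CArG boxes lay 110 and 73 bases before the start of ACTG2 and 89 bases before that of CNN2. CATTCC began 183 bases before the start of ACTA2 and 42 bases before that of CALD1. A match describes these letters only and was not tested as a binding site.

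On an array, 17514 to 18721 probes (37.0% to 39.6%) had a detection p-value under 0.05, which is called above background here, and the medians of the deposited log2 values ran from 7.04 to 7.21. Levels below are log2 of the background-corrected and normalised signal, and the 4 values of a group are given as sample 1 (technical arrays 1 and 2) and then sample 2 (technical arrays 1 and 2). Probes of a gene are numbered from the brightest. Differences are log2 values ± SE from 1 limma model of the 6 biological samples (n = 2 per group), and a probe with a Benjamini-Hochberg adjusted p under 0.05 over all 17356 probes is called. The fold is on a scale with an offset of 16, which understates the change of dim probes, and levels of different probes cannot be compared.

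Nearly the whole set was higher in cells with either ICD. The set was chosen with earlier results of these data known. Its counts, here and below, therefore describe these genes and are no independent test of the set. Against VEC, 17 of 18 member probes, standing for all 9 tested genes, were called higher in CYT1 cells and 0 lower, where 35.9% of all tested probes were called, 16.7% higher and 19.2% lower. In CYT2 cells 17 of 18 were also called higher and 0 lower, where 30.4% of all probes were called, 14.7% higher and 15.6% lower. In 16 of 18 probes every CYT1 array lay above every VEC array, as in 17% of all tested probes, and in 16 of 18 every CYT2 array did, as in 15.7%. The median difference of the member probes was 1.77 in CYT1 cells and 1.02 in CYT2 cells, while the medians of all tested probes were -0.04 and -0.05. With 2 probes at their bound, the members' medians were 1.64 and 1.02. Since 4 of the 18 probes (ACTG2, TPM1 probes 3 and 4, and LCP1) passed the filter without being above background on all 12 arrays, the count was also taken over the other 14, of which 13 were called higher in each comparison. On this scale the largest differences were those of TAGLN and MYL9. Both comparisons use the same VEC samples. The arrays measure RNA of all cells together, so more cells with a transcript and more of it per cell cannot be told apart.

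**Figure D1:**
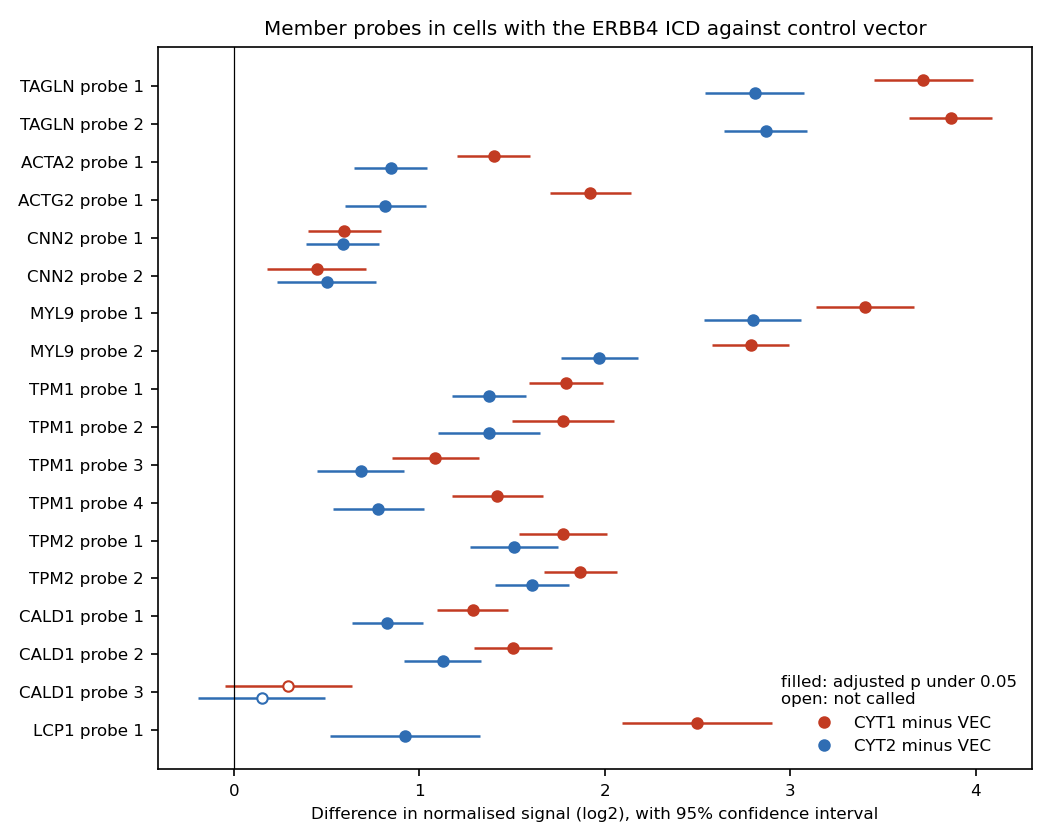
Difference in normalised signal (log2, horizontal axis) of CYT1 (red) and CYT2 (blue) cells from VEC cells for the 18 tested member probes; points are limma estimates with 95% confidence intervals, filled where called. All points lie above 0, the intervals of CALD1 probe 3 alone cross it, and TAGLN and MYL9 lie farthest out, between 1.97 and 3.87.

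Transgelin, encoded by TAGLN, cross-links actin filaments and is an early marker of smooth muscle differentiation. TAGLN probe 1 (ILMN_1778668) read 9.13, 9.33, 9.13 and 8.93 on the VEC arrays, 12.99, 12.78, 12.83 and 12.79 on the CYT1 arrays, and 11.98, 12.07, 11.78 and 11.92 on the CYT2 arrays. The 3 groups did not overlap, with CYT2 between VEC and CYT1. The probe was 13.2-fold higher in CYT1 than in VEC cells (3.72 ± 0.11, limma adjusted p = 3.07e-05) and 7.0-fold higher in CYT2 cells (2.81 ± 0.11, adjusted p = 6.72e-05). Its CYT1 difference exceeded that of 99.9% of tested probes. A second probe (ILMN_2400935) showed the same order, at 7.40, 7.62, 7.52 and 7.84 in VEC, 11.60, 11.38, 11.64 and 11.22 in CYT1 and 10.37, 10.54, 10.45 and 10.50 in CYT2 cells. It was 14.6-fold higher in CYT1 and 7.30-fold higher in CYT2 than in VEC cells. TAGLN probe 3, annotated to another transcript, was above background on 0 of 12 arrays (detection p 0.101 to 0.812) and was not tested.

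ACTA2 encodes the alpha actin of vascular smooth muscle, of myofibroblasts and of myoepithelial cells. Its 1 probe (ILMN_1671703) read 10.63, 10.53, 10.52 and 10.50 in VEC, 11.98, 11.95, 11.88 and 11.96 in CYT1, and 11.42, 11.36, 11.38 and 11.40 in CYT2 cells. Again every CYT2 array lay between the VEC and the CYT1 arrays. ACTA2 was 2.64-fold higher in CYT1 (1.40 ± 0.08, limma adjusted p = 0.000161) and 1.80-fold higher in CYT2 than in VEC cells (0.84 ± 0.08, adjusted p = 0.0011).

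ACTG2, whose window above holds the pair of CArG boxes, encodes the gamma actin of visceral smooth muscle. Its 1 probe (ILMN_1795325) was above background on 0 of 4 VEC arrays, 4 of 4 CYT1 arrays and 2 of 4 CYT2 arrays. It read 4.52, 4.56, 4.69 and 4.53 in VEC, 6.84, 6.28, 6.70 and 6.17 in CYT1, and 5.56, 5.30, 5.56 and 5.13 in CYT2 cells. The groups did not overlap, although the VEC values only bound the level from above. Set against the lowest signal that counted as detected, ACTG2 was at least 2.0-fold higher in CYT1 than in VEC cells (limma adjusted p = 0.000101). In CYT2 cells it was called higher (adjusted p = 0.00184), but its mean did not exceed the bound set by the dimmest detected probes of VEC, so no fold is given. The 2 cytoplasmic actins tested beside them, ACTB and ACTG1, which every cell uses, were not called: ACTB differed from VEC by 0.04 ± 0.08 in CYT1 and 0.10 ± 0.08 in CYT2 cells, and ACTG1 by 0.12 ± 0.11 in each.

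**Figure D2:**
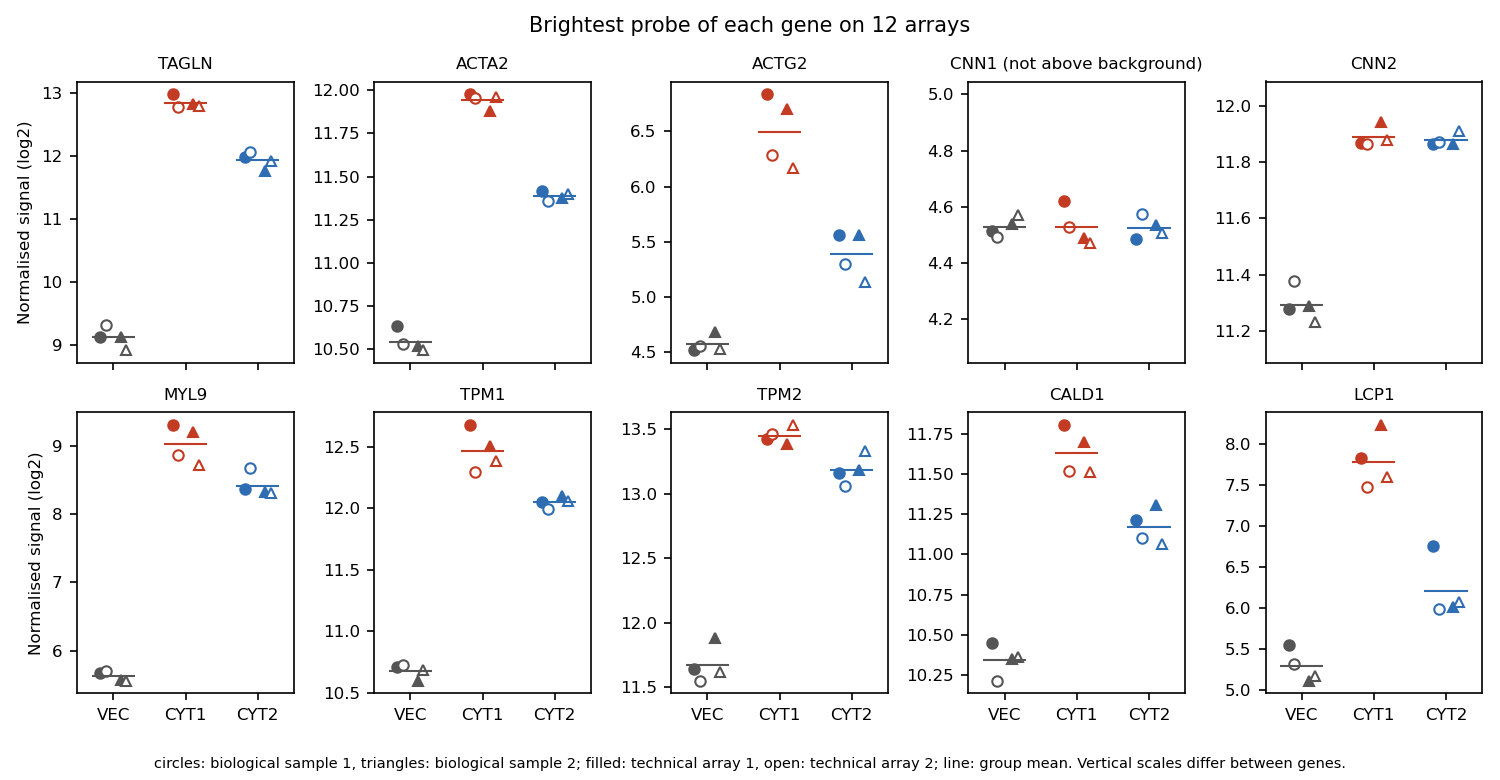
Normalised signal (log2, vertical axis; scales differ between panels) of the brightest probe of each of the 10 genes on the 4 arrays of VEC, CYT1 and CYT2 cells; symbols mark the biological sample and technical array, and lines the group means. In TAGLN, ACTA2, ACTG2, MYL9, TPM1, TPM2, CALD1 and LCP1 the CYT2 arrays lie between those of the other groups, in CNN2 they lie with those of CYT1, and CNN1 stays between 4.47 and 4.62 in every group.

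Of the tropomyosins, coiled-coil proteins that wind along the actin filament, TPM2 probe 1 (ILMN_1789196) read 11.64, 11.55, 11.88 and 11.62 in VEC, 13.42, 13.46, 13.39 and 13.53 in CYT1, and 13.16, 13.06, 13.18 and 13.33 in CYT2 cells. The CYT1 and CYT2 arrays lay close together and far above VEC. TPM2 was 3.42-fold higher in CYT1 (1.77 ± 0.10, limma adjusted p = 0.000144) and 2.85-fold higher in CYT2 than in VEC cells (1.51 ± 0.10, adjusted p = 0.000306). Its probe 2 gave 3.65-fold and 3.05-fold. TPM2 probe 3 was above background on 1 CYT1 array alone and was not tested.

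All 4 probes of TPM1 were called higher in both kinds of cells. TPM1 probe 1 (ILMN_1716687) read 10.71, 10.72, 10.60 and 10.68 in VEC, 12.68, 12.30, 12.51 and 12.39 in CYT1, and 12.05, 11.99, 12.10 and 12.06 in CYT2 cells, with no overlap between groups. It was 3.46-fold higher in CYT1 (1.79 ± 0.08, limma adjusted p = 9.09e-05) and 2.59-fold higher in CYT2 than in VEC cells (1.37 ± 0.08, adjusted p = 0.000236). Probe 2 was higher by 1.77 ± 0.11 and 1.37 ± 0.11, within the error of probe 1. The dimmer probe 3, above background on 3 of 4 VEC arrays, was higher by 1.09 ± 0.10 and 0.68 ± 0.10, on a scale that understates the change of dim probes. Probe 4 was above background on 0 VEC, 4 CYT1 and 1 CYT2 arrays, so that it was at least 1.48-fold higher in CYT1 than in VEC cells and has no fold in CYT2 cells. TPM1 is spliced into many isoforms, and which of them each probe reads was not examined.

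MYL9 encodes the regulatory light chain whose phosphorylation switches on smooth muscle and non-muscle myosin II. MYL9 probe 1 (ILMN_1776953) read 5.67, 5.70, 5.56 and 5.56 in VEC, 9.31, 8.86, 9.21 and 8.73 in CYT1, and 8.36, 8.68, 8.32 and 8.32 in CYT2 cells. All CYT1 arrays lay above all CYT2 arrays, though the lowest of the first and the highest of the second were close. The probe was 10.6-fold higher in CYT1 (3.40 ± 0.11, limma adjusted p = 3.25e-05) and 6.95-fold higher in CYT2 than in VEC cells (2.80 ± 0.11, adjusted p = 6.4e-05). Probe 2 was 6.90-fold and 3.92-fold higher. The VEC signals of MYL9 were near background, and on the deposited log2 values, with no background correction, the differences of probe 1 were 1.93 and 1.48 and those of probe 2 were 1.56 and 0.98, all still called.

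Caldesmon, the product of CALD1, binds actin, myosin and calmodulin and restrains the myosin motor. CALD1 probe 1 (ILMN_1730487) read 10.45, 10.22, 10.35 and 10.36 in VEC, 11.80, 11.52, 11.70 and 11.51 in CYT1, and 11.21, 11.10, 11.31 and 11.07 in CYT2 cells, and the groups were separate. It was 2.44-fold higher in CYT1 (1.29 ± 0.08, limma adjusted p = 0.000196) and 1.77-fold higher in CYT2 than in VEC cells (0.83 ± 0.08, adjusted p = 0.0011). Probe 2 gave 2.84-fold and 2.18-fold. CALD1 probe 3 was the 1 tested member probe that was called in neither comparison, at 0.29 ± 0.14 (adjusted p = 0.156) in CYT1 and 0.15 ± 0.14 (adjusted p = 0.467) in CYT2 cells. Its arrays overlapped between the groups, with 5.85 to 6.30 in VEC, 6.02 to 6.64 in CYT1 and 5.95 to 6.66 in CYT2 cells.

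The calponins, which bind actin and slow the myosin ATPase, are represented by 2 members. CNN1, the form restricted to differentiated smooth muscle, was above background on 0 of 12 arrays (detection p 0.80 to 0.996, raw signals 95.9 to 112.7), so it was not tested and no fold is given. CNN2, the form found in many non-muscle cells, read 11.28, 11.38, 11.29 and 11.23 in VEC, 11.87, 11.86, 11.94 and 11.88 in CYT1, and 11.86, 11.87, 11.87 and 11.91 in CYT2 cells (probe 1, ILMN_1770290). Here the CYT1 and CYT2 arrays lay on top of each other and all above VEC. CNN2 was 1.51-fold higher in CYT1 (0.60 ± 0.08, limma adjusted p = 0.00283) and 1.5-fold higher in CYT2 than in VEC cells (0.59 ± 0.08, adjusted p = 0.00379). Its dimmer probe 2 was higher by 0.45 ± 0.11 (adjusted p = 0.0238) and 0.50 ± 0.11 (adjusted p = 0.0188) with arrays that overlapped VEC, and these calls were lost in 6 of 18 other settings each, where the adjusted p ranged up to 0.367 and 0.136.

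LCP1 encodes L-plastin, an actin-bundling protein known from leukocytes and from many carcinoma cell lines rather than from muscle. Its 1 probe (ILMN_1662932) was above background on 1 of 4 VEC arrays and on all arrays of the other groups. The VEC level thus rests mainly on signals near background. It read 5.55, 5.31, 5.11 and 5.16 in VEC, 7.83, 7.47, 8.23 and 7.59 in CYT1, and 6.76, 5.98, 6.01 and 6.07 in CYT2 cells. The groups did not overlap, but sample 1, technical array 1 of CYT2 stood above the other CYT2 arrays. LCP1 was 5.65-fold higher in CYT1 (2.5 ± 0.17, limma adjusted p = 0.000244) and 1.90-fold higher in CYT2 than in VEC cells (0.92 ± 0.17, adjusted p = 0.00954). The call in CYT2 cells was lost in a fit of technical arrays 1 alone, at 1.05 (adjusted p = 0.0591), and in a fit that left out VEC sample 2, at 0.78 (adjusted p = 0.0516), in a range of adjusted p from 0.00121 to 0.0591 over 18 settings. On the deposited log2 values, with no background correction, its differences were 1.14 and 0.33. Its paralogs did not share one direction: PLS1, the fimbrin of intestinal and other epithelia, fell by 1.17 ± 0.08 in CYT1 and by 0.81 ± 0.08 in CYT2 cells, and PLS3, the plastin of many solid tissues, was higher by 0.65 ± 0.09 and 0.38 ± 0.09.

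The comparison between the ICD forms asked whether CYT2, which lacks the stretch of CYT1 with a docking site for phosphoinositide 3-kinase, left the set at another level. Called lower in CYT2 than in CYT1 cells were 5 of 18 probes, of 4 genes, and higher 0, where 0.472% of all probes were called, 0.202% higher and 0.271% lower. They were both tested TAGLN probes, ACTG2, MYL9 probe 2 and LCP1, of which 3 were among the 14 probes above background on all 12 arrays. Called or not, 17 of 18 differences were negative, with a median of -0.44 against 0.00 for all tested probes. In 14 of 18 probes every CYT2 array lay below every CYT1 array, as did 5.34% of all tested probes.

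On this scale LCP1 had the largest of these differences, 2.98-fold lower in CYT2 than in CYT1 cells (-1.57 ± 0.17, 95% interval -1.98 to -1.17, limma adjusted p = 0.0387). ACTG2 was lower by 1.11 on the log2 scale (-1.11 ± 0.09, -1.32 to -0.89, adjusted p = 0.0305), TAGLN probe 2 differed by -1.0 ± 0.09 (-1.22 to -0.77, adjusted p = 0.0345) and TAGLN probe 1 by -0.91 ± 0.11 (-1.18 to -0.64, adjusted p = 0.0449). MYL9 probe 2 differed by -0.82 ± 0.09 (-1.02 to -0.61, adjusted p = 0.0387), and MYL9 probe 1, not called, by -0.61 ± 0.11 (-0.87 to -0.34, adjusted p = 0.076). Among the uncalled members, ACTA2 differed by -0.56 (-0.75 to -0.36, adjusted p = 0.056) and CALD1 probe 1 by -0.46 (-0.65 to -0.27, adjusted p = 0.07). The 4 TPM1 probes differed by -0.64 to -0.40, and TPM2 probes 1 and 2 by -0.27 (-0.50 to -0.03) and -0.26 (-0.46 to -0.06). CNN2 probe 1 differed by -0.01, with an interval of -0.20 to 0.18, so that a difference beyond 0.20 on this scale lies outside it.

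These calls between the ICD forms are not firm. Without any 1 of the 6 biological samples, the VEC samples included, limma called 0 of 18 member probes and 0 to 3 of all probes, which leaves 2 residual degrees of freedom, while 12 to 15 member probes had an unadjusted p under 0.05. Leaving out either VEC sample gave the same fit as using the CYT1 and CYT2 samples only, so these fits are not separate checks. Other settings called 0 to 12 members, and in all of them the called probes and ACTA2 stayed negative: TAGLN probe 1 ran from -1.03 to -0.79, ACTG2 from -1.2 to -0.42 and LCP1 from -1.74 to -0.81.

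**Figure D3:**
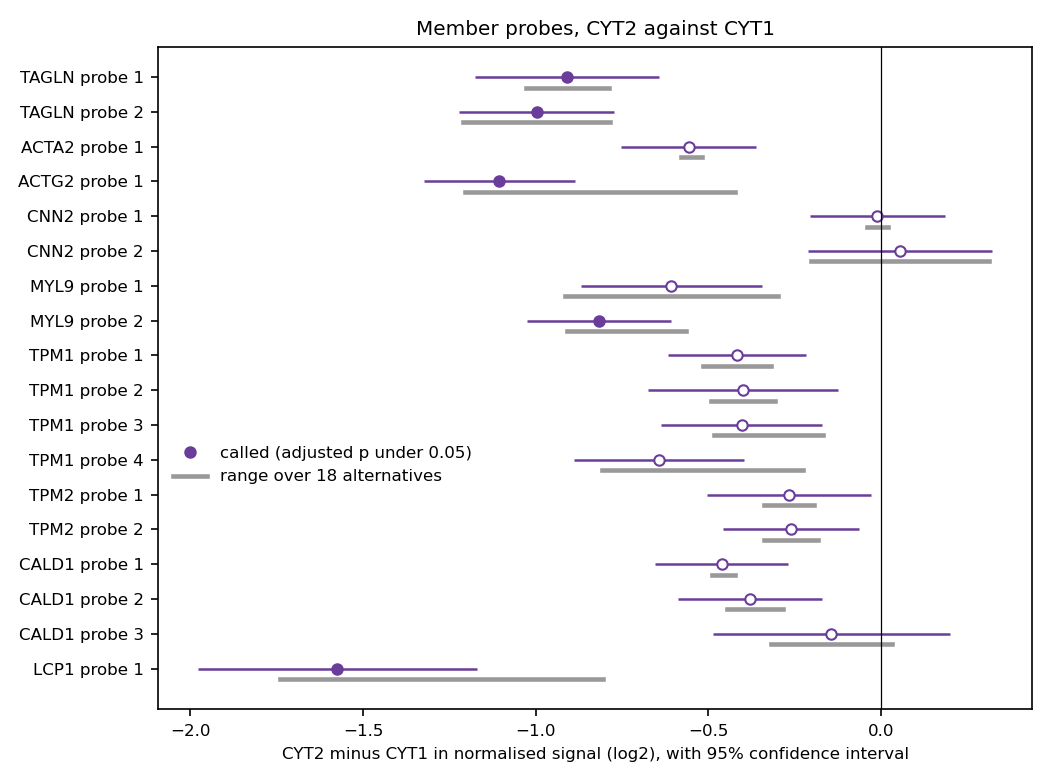
Difference in normalised signal (log2, horizontal axis) of CYT2 from CYT1 cells for the 18 tested member probes; points are limma estimates with 95% confidence intervals, filled where called, and grey bars span the values under 18 other settings. All points but that of CNN2 probe 2 lie below 0, and LCP1 lies lowest at -1.57.

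The groups of related genes moved less evenly. The 8 lists named 151 genes, and 107 of the 140 with a probe on the array could be tested, each by its brightest probe. The lists share some genes, TPM4 and ACTN1 among them, which are counted in each. Of 26 tested genes of SRF, its cofactors and its targets outside the members, 16 were called higher and 1 lower in CYT1 cells (median 0.44) and 11 higher and 1 lower in CYT2 cells (median 0.24). Of all tested probes, 16.7% were called higher and 19.2% lower in CYT1 cells and 14.7% and 15.6% in CYT2 cells, with medians near 0. The secreted matricellular proteins CCN2 and CCN1, which YAP and TEAD factors also drive, led this list, at 3.21 ± 0.08 and 2.63 ± 0.08 in CYT1 and 2.96 ± 0.08 and 2.33 ± 0.08 in CYT2 cells. CSRP2, a LIM protein of smooth muscle, was higher by 1.51 ± 0.09 and 1.22 ± 0.09. Named after their values were seen, SRF itself was higher by 0.66 ± 0.09 and 0.52 ± 0.09, and FOS, an immediate early gene, was the 1 that fell, by 0.44 ± 0.13 in CYT1 and by 0.59 ± 0.13 in CYT2 cells.

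Of the smooth muscle differentiation genes outside the members, 4 of 18 on the array could be tested, and the others were not bright enough. All 4 were called higher in both kinds of cells, where 16.7% of all tested probes were called higher in CYT1 and 14.7% in CYT2 cells. The medians of the 4 were 1.03 and 1.02 (0.69 and 0.74 with MYLK at its bound). NEXN, the filament-binding protein nexilin, was higher by 2.52 ± 0.10 in CYT1 and 2.37 ± 0.10 in CYT2 cells, and SMTN, smoothelin, by 1.0 ± 0.10 and 1.10 ± 0.10. MYLK, the kinase that phosphorylates the MYL9 protein, was above background on 0 VEC, 3 CYT1 and 4 CYT2 arrays. It thus passed the filter only through the groups where it was brighter, so its calls are not independent of that filter. MYLK was at least 1.2-fold and at least 1.11-fold higher than in VEC cells.

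The counts of the remaining lists stand beside 16.7% of all tested probes called higher and 19.2% lower in CYT1 cells, and 14.7% and 15.6% in CYT2 cells. Among the paralogs of the members, 3 of 5 were called higher and 1, PLS1, lower in each comparison with VEC, among them the non-muscle tropomyosin gene TPM4 (0.95 ± 0.12 and 0.52 ± 0.12). Of 17 genes of myosin II and its regulators, 6 were higher and 1 lower in CYT1 cells and 4 higher and 0 lower in CYT2 cells, with MYL6B, an essential light chain, at 0.82 ± 0.10 and 0.85 ± 0.10 and the phosphatase subunit gene PPP1R12C at 0.84 ± 0.19 and, not called, 0.35 ± 0.19 (adjusted p = 0.23).

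Of 22 cross-linkers and filament-end proteins, 8 were higher and 5 lower in CYT1 cells and 7 higher and 4 lower in CYT2 cells, with DIAPH3, a formin, at 1.29 ± 0.20 and 1.47 ± 0.20, ENAH at 0.76 ± 0.09 and 0.71 ± 0.09 and its relative VASP at -0.75 ± 0.15 and -0.51 ± 0.15. Of 25 turnover and branching genes, 4 were higher and 2 lower in CYT1 cells (median -0.04) and 4 higher and 3 lower in CYT2 cells (median 0.05). Higher calls were thus about as frequent as among all tested probes. The called genes with the largest changes in CYT1 cells were all higher, among them CAP2 (0.97 ± 0.09 and 0.94 ± 0.09) and the cofilin kinase gene LIMK2 (0.94 ± 0.12 and 0.65 ± 0.12). TMSB15A, a thymosin that binds actin monomers, was above background on 0 VEC arrays and was at least 2.82-fold higher in CYT1 and at least 3.33-fold higher in CYT2 cells. Between CYT2 and CYT1 cells limma called 0 of the 107 related genes, of which 24 had an unadjusted p under 0.05.

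**Figure D4:**
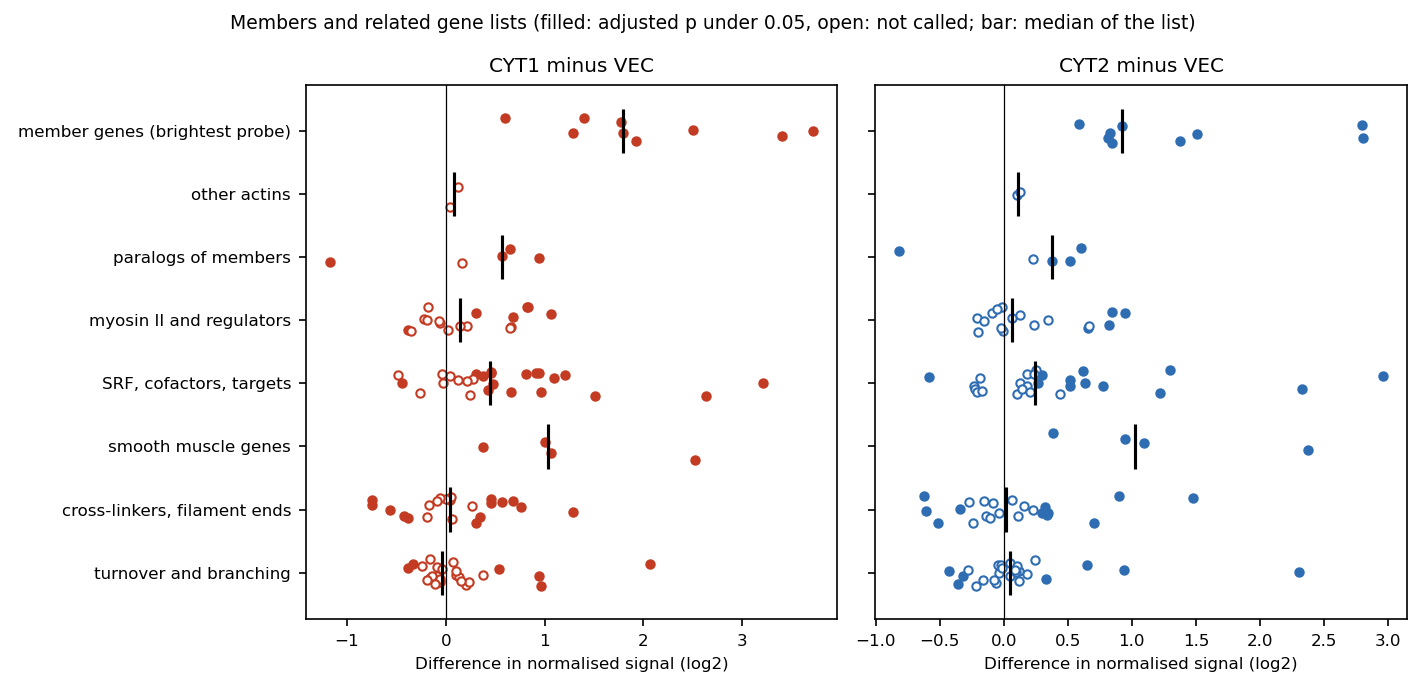
Difference in normalised signal (log2, horizontal axes) of CYT1 and CYT2 cells from VEC cells for the 9 tested member genes and the related lists described here, each gene by its brightest tested probe; points are genes, filled where called, and bars are list medians. All 9 member genes lie right of 0 in both panels, while the cross-linker and turnover lists spread to both sides of 0.

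Marker genes of other cell types were read on the same arrays. Of 10 mammary epithelial markers on the array, 9 were above background on all 12 arrays. Of 14 smooth muscle and pericyte markers, 11 were above background on 0 arrays, with MYH11 (smooth muscle myosin heavy chain), DES (desmin), LMOD1, PDGFRB and RGS5 among them, and SMTN alone was detected on all arrays. The summed signal of this list was 624 to 709 in VEC, 930 to 1013 in CYT1 and 953 to 1082 in CYT2 cells. Its rise followed SMTN, which also stands in the smooth muscle list above, at mean levels of 8.15, 9.15 and 9.24. MYOCD read 5.34, 5.30 and 5.40 and NOTCH3 5.07, 5.47 and 5.07, both near background, so the sum does not show a rise of these markers as a group. Of 15 fibroblast markers 4 were above background on 0 arrays (COL3A1, LUM, THY1 and PDGFRB). The summed signal of this list was 19791 to 21165 in VEC, 29057 to 30900 in CYT1 and 25785 to 27482 in CYT2 cells, but its genes did not all rise. Named after their values were seen, DCN (decorin) had mean levels of 6.79 in VEC, 11.86 in CYT1 and 10.83 in CYT2 cells, and FAP read 6.67, 9.82 and 9.26. COL6A3 read 6.70, 9.12 and 8.79, FN1 read 5.45, 7.30 and 6.59, and COL1A1 read 5.54, 7.05 and 6.54, with FN1 above background on 2 and COL1A1 on 1 of 4 VEC arrays. S100A4 and POSTN also had higher means in both ICD groups. COL1A2 went the other way, at 5.6, 5.35 and 5.39, above background on 3, 1 and 3 arrays. COL5A1 hardly moved, at 5.42, 5.47 and 5.44, nor did VIM, the brightest of the list, at 14.06, 14.18 and 14.12. The sum therefore does not show a rise of the fibroblast markers as a group. The part of these markers in the result was not tested.

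The leukocyte list, read because of LCP1, had 6 of 14 markers above background on 0 arrays, with PTPRC (CD45), CD3E and HCLS1 among them, and summed to 1716 to 1868 in VEC, 1688 to 1926 in CYT1 and 2015 to 2073 in CYT2 cells. The 3 leukocyte markers above background on all 12 arrays, named after their values were seen, were CORO1A at mean levels of 6.41 in VEC, 7.09 in CYT1 and 7.31 in CYT2 cells, ITGB2 at 8.63, 9.53 and 9.32, and CD14 at 9.88, 9.13 and 9.77. Their part in the LCP1 result was not tested. Myoepithelial markers summed to 19880 to 21036 in VEC, 23453 to 24563 in CYT1 and 20642 to 22631 in CYT2 cells, with 8 of 9 above background on all arrays and none on 0. The brightest, CAV1, had mean levels of 13.53, 13.84 and 13.67, and KRT14, KRT5, MME and MYLK were also higher in both ICD groups. EGFR was lower in both, at 10.89, 9.13 and 9.64, as were CDH3 and ITGB4. OXTR was higher in CYT1 and lower in CYT2 cells. The sum therefore does not show a rise of the myoepithelial markers as a group. Of 9 endothelial markers 5 were above background on 0 arrays, and the list summed to 243 to 305, 252 to 313 and 274 to 318 in the same order.

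The profiles of TAGLN and LCP1 were set against those of all tested probes with 1 symbol, by the Euclidean distance over the 6 samples after subtraction of each probe's VEC mean. The profiles closest to that of TAGLN probe 1 were those of another member, MYL9 (probe 1, distance 0.448), IFI44L (0.462), SPOCD1 (0.498), CADM3 (0.538) and CRYAB (0.612), the gene of the small heat shock protein alpha B-crystallin. The order of these distances is not read, since the VEC signals of MYL9 were near background and CADM3 was above background on 0 VEC arrays. On the deposited log2 values, TAGLN probe 1 differed from VEC by 3.35 and MYL9 probe 1 by 1.93 in CYT1 cells. With background correction, differences from VEC were 3.63 and 3.05 for IFI44L, 3.43 and 2.89 for SPOCD1 and 4.01 and 2.95 for CRYAB in CYT1 and CYT2 cells. CADM3 was at least 7.96-fold and 5.42-fold higher. LCP1 lay nearest to HSD17B2 (0.551), RTN1 (0.553), IGFBP4 (0.648), KLK5 (0.734) and IGFBP7 (0.847), in distances whose order is not read, since LCP1 was above background on 1 of 4 VEC arrays. HSD17B2, RTN1 and IGFBP4 were above background on 0 VEC arrays and were at least 3.23-fold, 2.46-fold and 3.21-fold higher in CYT1 cells. KLK5, a secreted serine protease, was higher by 2.06 ± 0.13 and 1.09 ± 0.13, and IGFBP7, an insulin-like growth factor binding protein, by 1.99 ± 0.09 and 0.81 ± 0.09.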

How the data were processed

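Total RNA of MCF10A cells was labelled as biotinylated cRNA and hybridised to 12 one-colour Illumina bead arrays, per the labels' protocols. The authors deposited an average signal intensity per probe, neither background-subtracted nor normalised as the values show, and a detection p-value that moves in steps of 1 in 770. The deposited log2 table, named by sample, equalled log2 of exactly 1 signal column per array (largest difference 5e-09, next best column 0.829 to 1.27), which settles the scale and shows no centring and no ratio. This identity joined detection p-values to samples. The scanner software is not given in the sources used here.

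These signals were corrected, offset by 16, quantile-normalised and logged with neqc of limma 3.58.1 (R 4.3.3), which infers negative controls from the detection p-values. Tested were probes with detection p under 0.05 on each technical array in 2 or more of the 6 biological samples. Technical arrays were averaged as 1 replicate, and 1 limma model of 3 groups (3 residual degrees of freedom, prior 3.07) gave two-sided moderated tests with Benjamini-Hochberg adjustment over 17356 probes per contrast. The model was tested on simulated data. The number of arrays limits the precision. A probe above background on 0 arrays of the dimmer group gets a bound: the brighter group's mean against, per array, the higher of the lowest detected signal and the probe's own. Symbols came from the array annotation (30113 probes with 1 symbol, 8 with several, 17202 with none), and 30074 were found in a reference gene table. A list gene is read by its brightest probe over all arrays.

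The members and lists were chosen with earlier results of these data known. Results of 1 of the 8 related lists are not reported here, though its genes are in the totals over all lists. All members are described; from each related list up to 3 called genes with the largest change in CYT1 against VEC and up to 2 in CYT2 against CYT1 are named, and the 5 profiles closest to TAGLN and to LCP1. In all, 18 alternatives were run: other background corrections and normalisations, filters, replicate structures, blocks and left-out samples. For each contrast, leaving out either sample of the group outside it repeats the fit of only the groups compared, so not all 18 are distinct. Plots used Python 3.11.15 and matplotlib 3.10.9.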

Additional observations from a re-analysis of the deposited data

Results flagged for a closer look

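In 4 of 63 groups of 4 arrays of a member probe, 1 array stood apart, its gap to the nearest other array being a larger share of the group's range than Dixon's critical value for 4 values allows, where chance sets apart about 1 in 20 groups. LCP1 read 6.76 on technical array 1 of CYT2 sample 1, and 5.98 to 6.07 on the other 3 CYT2 arrays. Without CYT2 replicate 1, LCP1 was higher than in VEC cells by 0.76, with a limma adjusted p of 0.0498 (0.00121 to 0.0591 over 18 alternatives). MYL9 probe 1 read 8.68 on technical array 2 of CYT2 sample 1, and 8.32 to 8.36 on the others. TPM2 probe 2 read 12.65 on technical array 2 of CYT2 sample 2, and 12.53 to 12.54 on the others. CNN2 probe 1 read 11.94 on technical array 1 of CYT1 sample 2, and 11.86 to 11.88 on the others.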

How the results depend on the processing

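Over 18 alternatives, 17 of them planned, the differences of member probes from VEC kept their direction, except CALD1 probe 3 in CYT2 cells, never called, at -0.15 with technical arrays 2 alone. Calls against VEC were lost for CNN2 probe 2 in both contrasts and, in CYT2 cells, for TPM1 probe 3 with technical arrays 1 alone and for LCP1 as given above; 14 to 17 member probes were called in CYT2 and 16 to 17 in CYT1 cells. Signals without background correction gave smaller differences for dim probes: on the deposited log2 values ACTG2 differed by 0.89 and TPM1 probes 3 and 4 by 0.42 and 0.64 in CYT1 cells. The share of higher calls among all called probes was 46.5% in CYT1 and 48.5% in CYT2 cells; it was 44.9% and 45.4% with quantile normalisation of uncorrected signals, 33.1% and 34.9% with median scaling and 31.3% and 31.2% on the deposited values.

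Between CYT2 and CYT1 cells the counts depended on the setting, and the cause was not tested. Against 5 member probes and 82 probes of all, quantile normalisation called 12 and 995, median scaling 11 and 963, the deposited log2 values 10 and 706, an offset of 50 10 and 482, a stricter detection filter 9 and 476, no filter 0 and 2, technical arrays 1 alone 0 and 1, technical arrays 2 alone 0 and 2, and all 12 arrays with the biological sample as random block 12 and 1094. Fitting only the groups compared called 0 and 3, and leaving out 1 replicate 0 to 0 and 0 to 3. Of the related genes, 0 were called, against 4, 3 and 1 with quantile, median-scaled and deposited values and 6 with all 12 arrays. In the fit of all 12 arrays the technical arrays of a sample correlated at -0.144, which makes its errors smaller than those of independent arrays. On the deposited values every member probe had the same SE against VEC, 0.097, so calls there followed the size of the difference alone. The larger counts of these settings are therefore not firmer. The biological number as a replicate block called 0 members and 2 probes of all, and 17 members in each comparison with VEC. Deviations of same-numbered samples correlated at -0.0059, 0.00037 and 0.016 between groups. Arrays of a group that shared a biological number differed about as much as arrays that shared neither number (0.322 and 0.326). These correlations therefore cannot tell whether the numbers pair the samples. Averaging arrays by technical number instead, chosen after seeing the data, called 2 members and 23 probes of all between CYT2 and CYT1 cells, and 28 related genes between CYT2 and VEC cells.

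Against VEC, all probes called fell from 6229 in CYT1 cells to 3720 and 3931 with technical arrays 1 or 2 alone, and to between 3969 and 5688 when 1 replicate was left out; from 5272 in CYT2 cells they fell to 2972 and 2937, and to between 3020 and 4921. Related genes called in CYT2 cells fell from 44 to 24 with technical arrays 1 alone and to between 26 and 40 without 1 replicate. Uncalled values of CYT2 against CYT1 that changed sign were CNN2 probe 1 at 0.0217 (median scaling), 0.0140 (deposited values) and 0.0212 (technical arrays 2 alone), and CNN2 probe 2 at -0.20 (technical arrays 1 alone). Without 1 replicate, CNN2 probe 1 ran from -0.0323 to 0.0125, CNN2 probe 2 from -0.0360 to 0.147 and CALD1 probe 3 from -0.319 to 0.0309. Signals near background leave the size of dim differences uncertain.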
